A study of Mus musculus with 2 samples.

Results

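The genes described here are 8 markers by which stem and progenitor cells of the prostate are commonly recognised: Trp63, Kit, Ly6a, Psca, Cd44, Prom1, Bmi1 and Lgr5. They were found by name among the non-control probes of both arrays, where they had 15 probes, and they are 8 of the 27827 gene names on the design. Of the 15 probes, 12 were bright enough to be tested, from 7 of the 8 genes, and each of those 12 was well above background in all 4 RNAs. Both Lgr5 probes and 1 Trp63 probe were not well above background in any RNA.

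The RNAs came from prostaspheres, balls of cells grown in Matrigel from single epithelial cells of the urogenital sinus (UGS), the embryonic tissue from which the prostate buds, taken, per the labels, at 16 days post conception on a C57/Bl6J background. The study's methods describe prostaspheres from adult prostate instead, and the labels are followed here. All 4 cultures spent 6 days in Matrigel with dihydrotestosterone, the androgen that drives prostate budding, and then 6 days with tamoxifen (TAM, 5 micromolar) or vehicle. In the ER-Sox9flox/flox cells TAM activates a Cre recombinase fused to an estrogen receptor (ERCre) and so removes Sox9, a transcription factor of the early prostate epithelium; ERCre is not restricted to a cell type. The genotype array set SOX9 wild type cells with TAM (Cy5) against floxed cells with TAM (Cy3). The treatment array set floxed cells with vehicle (Cy5) against floxed cells with TAM (Cy3). Each RNA was hybridised once, nothing in the labels ties it to separate animals, and whether the wild type cells carried ERCre is not stated. Tamoxifen itself therefore cannot be told apart from the loss of Sox9 on the treatment array, and on the genotype array neither can culture or genotype differences other than Sox9. Every log2 ratio below is Sox9-expressing over Sox9-deleted RNA, so a value above 0 is a higher level with Sox9. The dyes were not swapped, so a dye effect of a probe cannot be told apart from Sox9 either.

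The markers stand for different cells. Basal cells, which rest on the basement membrane, are kept by the transcription factor p63, the product of Trp63. Ly6a (Sca-1) and Cd44 are surface proteins used to sort progenitor-enriched fractions, Psca is a glycosylphosphatidylinositol-anchored protein of the same Ly6 family as Ly6a, Kit is the receptor of stem cell factor, Prom1 (CD133) is a pentaspan membrane protein of cell protrusions, Bmi1 is a chromatin repressor needed for self-renewal in several tissues, and Lgr5 is an R-spondin receptor of Wnt-dependent stem cells. All but Trp63 and Bmi1 encode proteins at the cell surface.

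The markers did not share 1 direction. Trp63 and Kit were higher with Sox9 on both arrays, Ly6a and Cd44 were lower with Sox9 on both arrays, Psca went opposite ways on the arrays, and Prom1 and Bmi1 stayed near 0. Of the 12 tested probes 4 were above 0 on both arrays, 4 below 0 on both and 4 of opposite sign, beside 34.5%, 32.6% and 32.8% of all 22731 tested probes. A ratio of at least 2-fold on both arrays was reached by 1 marker probe upward (0.29% of tested probes) and by 0 downward (0.128% of tested probes). No marker probe passed an adjusted p of 0.05 (0 of 12, beside 0.0088% of tested probes, limma with Benjamini-Hochberg adjustment). An unadjusted limma p under 0.05 was reached by 3 probes with the higher level in Sox9-expressing cells and 4 with the lower level, beside 9.5% and 8.05% of tested probes. These probes are not separate genes, since all probes of Cd44 are among the 4. Read by the brightest probe, 2 of 7 genes were higher and 2 lower at that unadjusted threshold, beside 1584 and 1373 of 15131 tested genes. By the same reading 3 of the 7 genes were above 0 on both arrays, 2 below and 2 of opposite sign. With 2 arrays, 1 residual degree of freedom was left per probe, and a missed threshold here does not show equal levels.

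**Figure D1:**
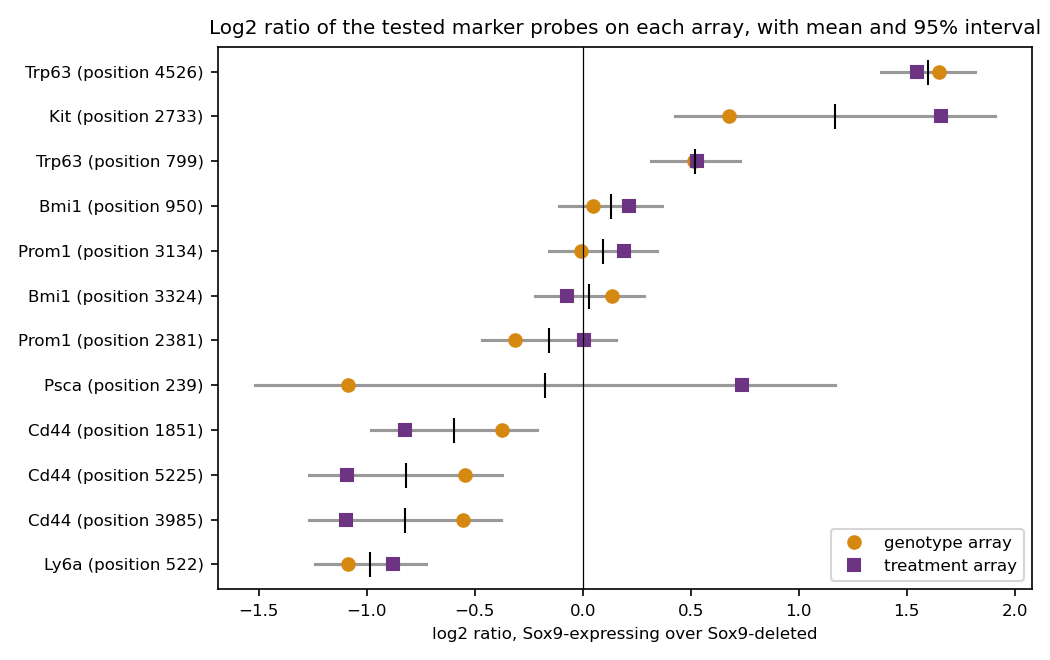
Log2 ratio (horizontal axis) of the 12 tested marker probes, each named by its gene and the probe's position in its transcript: circles are the genotype array, squares the treatment array, ticks the mean of both and grey lines the 95% interval from limma (n = 2 arrays). Trp63 at position 4526 has both arrays near 1.6, Ly6a and the 3 Cd44 probes lie below 0, and the interval of Psca is the widest, from -1.52 to 1.17.

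The cultures had the markers of their labelled tissue, and Sox9 itself followed the labels on 2 of its 3 probes. All 10 basal markers and 8 of 10 luminal markers were above background in all 4 RNAs, but Pbsn, the secretory probasin of the mature prostate, was not above background in any. All 12 stromal markers were also detected in all 4 RNAs. The brightest Sox9 probe had log2 ratios of 2.69 and 2.37, and the second of 1.18 and 1.27, while the third, farthest towards the end of the transcript, had -0.997 and -1.22 and was not above background in wild type cells. The source names of the RNAs call the Cy5 samples SOX9 and the Cy3 samples Ctrl, which can be read as the opposite assignment, so the direction of every ratio here rests on the genotype and treatment labels. On each array 45018 spots were scanned, no spot was saturated, and the log2 ratios of the arrays correlated with r = 0.447 across tested probes, which are not independent replicates.

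Trp63, the basal cell transcription factor, had the largest mean log2 ratio of the markers, although Kit was as high on the treatment array and higher on average in the scanner software's ratio (1.94 against 1.88). Its brightest probe (A_51_P216550, mm9 chr16:25892012-25892071, plus strand), near the end of the long transcript shared by most forms, read 1271 in wild type cells with TAM against 405 in their deleted partner, and 1166 in vehicle-treated floxed cells against 398 after TAM. Both Sox9-expressing RNAs were thus above both deleted RNAs. The share of all tested probes that separate in such a way was not counted, here or for the markers below. The log2 ratios were 1.65 and 1.55 (mean 1.60 ± 0.07 SD, n = 2, 95% interval 1.38 to 1.82), a 3.03-fold higher level with Sox9, and the mean ranked 31st from the top of the 22731 tested probes. The adjusted p was 0.0591 (limma). A second probe (A_52_P17264, chr16:25865388-25866165) sits earlier in the transcript, in the coding part for the DNA-binding domain, and spans an intron. It was dim, at 159 against 111 on the genotype array and 145 against 100 on the treatment array. Its log2 ratios were 0.52 and 0.53 (mean 0.52 ± 0.01 SD, n = 2), with an adjusted p of 0.122 (limma). The first 30 bases of the first probe and all 60 bases of the second, shown because they read different parts of the gene, are, 5′ to 3′:
Trp63 probe at transcript position 4526: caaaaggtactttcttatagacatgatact
Trp63 probe at transcript position 799: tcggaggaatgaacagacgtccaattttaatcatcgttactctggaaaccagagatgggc

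The gap between the Trp63 probes depended on how background was handled. The dim probe lay near the scanner's background, where the constant of 50 added after background correction pulls a ratio towards 0. With a constant of 10 its mean log2 ratio was 0.86, and in the scanner software's ratio it was 2.27, against 1.70 and 1.88 for the bright probe. The third Trp63 probe (chr16:25884684-25884743) was not well above background in any RNA, nor was 1 probe on the array that is described as Trp63 but filed under a transcript name. The adjusted p of the bright probe crossed 0.05 with median centring of the arrays (3.49e-09), with the authors' processed values (0.0372) and with no filter on dim probes (0.0469), and it ranged up to 0.585 over the 11 alternatives.

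Genes around p63 were mostly higher with Sox9 too. Of 15 tested p63 targets and paralogs, 11 were above 0 on both arrays, 3 below and 1 of opposite sign. Over all 15131 tested genes those counts were 5119, 5106 and 4899, which stand beside every list below as well. The list had a median of 0.31 beside 0.003 over all tested genes, and 0 passed the adjusted threshold. The median was 0.21 on the genotype array, 0.20 on the treatment array and 0.61 under median centring. That setting put the median of all tested probes on the treatment array at 0.379, which holds for the next list too. Of the 11, Fras1 (0.13 and 0.49), whose mean was the list's median, was above background only in the Sox9-expressing RNAs. With both dyes required to be above background the median was 0.29. Col17a1, the hemidesmosomal collagen of basal cells, had 2.62 and 2.03 (adjusted p = 0.0833, limma). Cdkn1a, the cell cycle inhibitor that p63 is known to repress, lay on the other side, at -0.65 and -0.96 (adjusted p = 0.118, limma), as did Itga3, an integrin subunit, at -0.45 and -1.26 (adjusted p = 0.206, limma), and Dst, which links keratins to hemidesmosomes, at -0.11 and -0.13. Its paralogs Trp53 and Trp73 had means of 0.08 and 0.04. Among 20 tested stem and progenitor genes outside the 8 markers, 11 were above 0 on both arrays, 6 below and 3 of opposite sign (median 0.26, or 0.14 on the genotype array alone and 0.57 under median centring). At least 2-fold higher with Sox9 on both arrays were 3 of them, beside 57 of all 15131 tested genes. The 3 were the basal keratins Krt5 (2.13 and 1.91, adjusted p = 0.0591), Krt14 (2.07 and 1.86, adjusted p = 0.0591) and Krt15 (1.04 and 1.09, adjusted p = 0.0833, all limma). Itga6, the integrin used beside Ly6a in prostate sorting, had 0.96 and 0.58.

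Basal markers as a whole moved with Trp63: 9 of 10 were above 0 on both arrays, and their summed brightness was 395810 and 337770 in the Sox9-expressing RNAs against 128370 and 126860 in the deleted ones. Fewer basal cells and less of these RNAs per basal cell cannot be told apart in bulk RNA. The 3 genes whose pair of log2 ratios lay nearest that of Trp63 (Euclidean distance over the 2 arrays) were Rn18s, a probe for the 18S ribosomal RNA (1.68 and 1.49), 2610035D17Rik (1.45 and 1.54) and Fam132a (1.82 and 1.39). Ribosomal RNA has no poly(A) tail and the labelling primed on poly(A), and whether the quality of the RNA has a part in the Trp63 value was not tested.

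**Figure D2:**
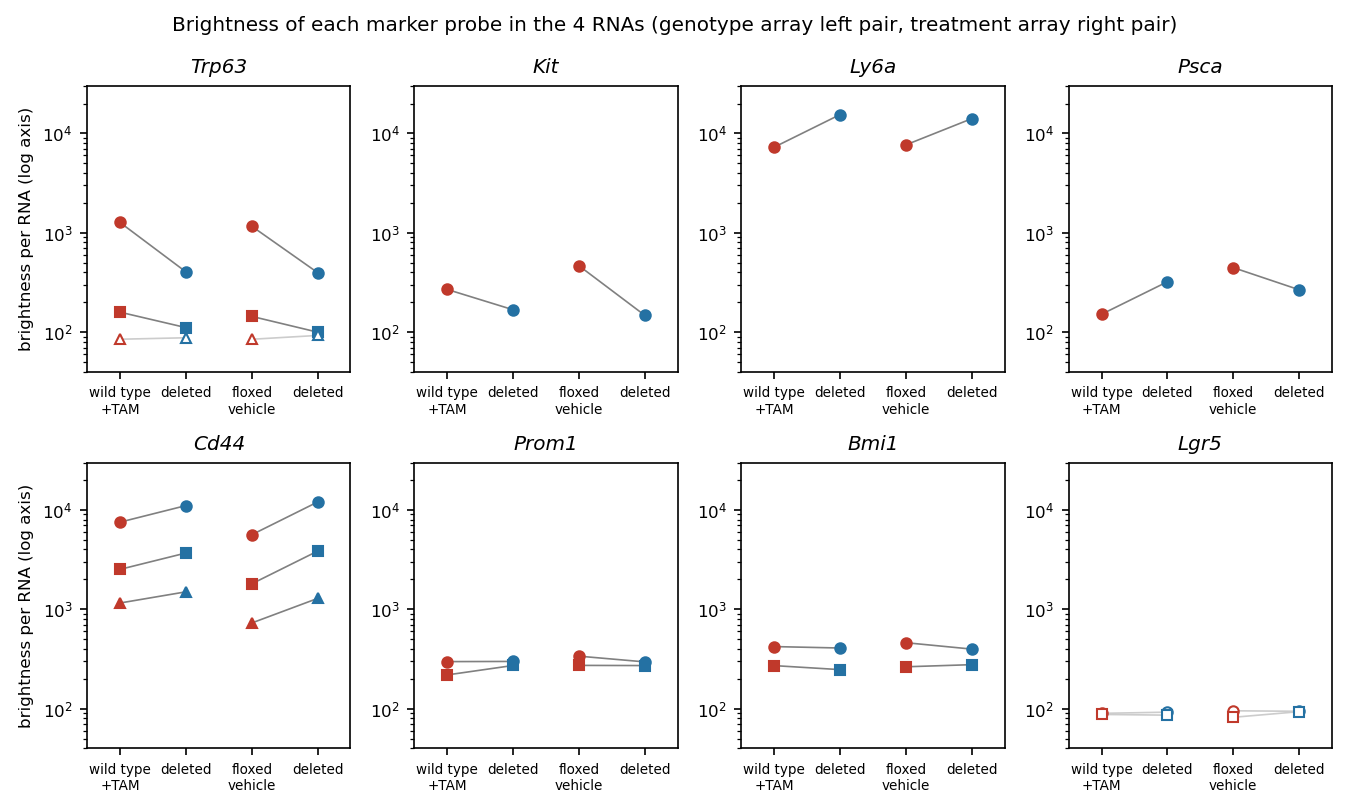
Brightness of each marker probe per RNA (vertical axis, log scale, arbitrary units), with Sox9-expressing RNAs in red and deleted RNAs in blue, lines joining RNAs of 1 array, a symbol shape for each probe and open symbols for probes that were not tested. Levels can be compared within a probe only; Trp63 runs downhill and Ly6a uphill on both arrays, while Psca changes direction.

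Kit, the stem cell factor receptor, was higher with Sox9 on both arrays but by unequal amounts. Its 1 probe (A_51_P355906, mm9 chr5:76052287-76052346, plus strand, listed for a truncated and for the full-length transcript) read 270 against 168 on the genotype array and 467 against 148 on the treatment array. The vehicle-treated floxed cells were the highest of the 4 RNAs. The groups did not overlap, and how common this is among all tested probes was not counted. The log2 ratios were 0.68 and 1.66 (mean 1.17 ± 0.69 SD, n = 2, 95% interval 0.43 to 1.91, adjusted p = 0.186, limma). The probe was spotted 10 times per array, and its spots ranged from 0.53 to 0.80 on the genotype array and from 1.47 to 1.84 on the treatment array. Spots of 1 array share their RNA, and whether the ratio differs between the 2 comparisons was not tested. The first 30 of its bases, shown because 1 oligo carries all that is known here of Kit, are:
Kit probe at transcript position 2733: tgtggtcatgtacgagactgtcaccagtta

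The size of the Kit value rested on the background handling as well, at 1.48 without background subtraction, 1.45 with the constant of 10 and 1.94 in the scanner software's ratio, and its adjusted p fell under 0.05 in 1 of 11 alternatives, median centring (9.71e-05), and ranged up to 0.641. The Kit signalling genes did not share its direction. Of 9 tested ligands, adaptors and relatives, 1 was above 0 on both arrays, 3 below and 5 of opposite sign (median -0.05). The ligand Kitl had -0.17 and -0.15. Cells other than progenitors express Kit, so their markers were read beside it. None of 7 mast cell markers was above background in all 4 RNAs and 5 of 7 in none, Cpa3 was above it in 1 RNA, and the 1 tested gene, Cma1, read between 100.5 and 109.6. Of 6 melanocyte markers Dct, Tyr and Tyrp1 were above background in no RNA, and Sox10 only in the deleted RNAs. Mlana read 140, 164, 265 and 173 in the order wild type, deleted, vehicle, deleted. Its vehicle reading was the highest, as for Kit, but its log2 ratios were -0.23 and 0.62. Pmel read 109, 115, 116 and 116 in the same order. The part of mast cells and melanocytes in the Kit value was not tested. The nearest genes by the pair of log2 ratios were Ccnb2 (0.66 and 1.63), Krt1 (0.74 and 1.59) and Glul (0.60 and 1.59).

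Ly6a, the gene of Sca-1, was lower with Sox9 on both arrays. The probe (A_51_P265495, mm9 chr15:74825553-74825612, minus strand) read 7289 in wild type cells against 15499 in deleted cells, and 7684 in vehicle-treated cells against 14104 after TAM. Both deleted RNAs were above both Sox9-expressing RNAs, and within each kind the 2 cultures lay close together. How many of all tested probes separate in this way was not counted. The log2 ratios were -1.09 and -0.88 (mean -0.98 ± 0.15 SD, n = 2, 95% interval -1.24 to -0.73, adjusted p = 0.0903, limma), a 1.98-fold higher level in deleted cells, and the mean ranked 66th from the bottom of the tested probes. Under median centring of the arrays the ratio on the treatment array was -0.14 and the mean -0.54 (adjusted p = 0.463, limma, with a range of 0.0696 to 0.588 over the alternatives). That setting puts the median of all tested probes on the treatment array at 0.379, against 0.017 on the genotype array, so its values on the treatment array stand relative to that shift.

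The Ly6 and uPAR family, to which Ly6a and Psca belong, was mixed. Of its 16 tested genes outside the markers, 3 were above 0 on both arrays, 8 below and 5 of opposite sign, with a median of -0.19 and 0 past the adjusted threshold. The median was -0.344 on the genotype array and 0.003 on the treatment array. Ly6c had -1.58 and -1.62 (adjusted p = 0.0591) and Ly6i -1.08 and -1.11 (adjusted p = 0.0833, both limma), both at least 2-fold lower with Sox9 on both arrays, and Ly6g6c had -1.11 and -0.88. Plaur, the urokinase receptor, had -0.50 and -0.96. Ly6d and Lypd3 lay on the other side, at 0.15 and 0.78 and at 0.32 and 0.46, and Ly6e, another broadly expressed member, was near 0 at 0.03 and 0.10.

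Ly6 genes are near copies of each other, so the letters of their probes were compared. For Ly6c and Ly6a, at their best ungapped overlap 33 of 40 letters were the same (82.5%), with a longest shared run of 10. No other tested family probe shared more than 50% at its best overlap of at least 30 letters, and the Ly6i probe shared 39.6%. The 30 bases of each probe that are most alike, 26 of them the same, are shown with the letters that differ in capitals:
Ly6a probe, bases 6 to 35: gttatagaagCtccaaGgtgggAGtagtgt
Ly6c probe, bases 26 to 55: gttatagaagGtccaaTgtgggGAtagtgt
How much of the Ly6c signal came from Ly6a RNA was not tested. The Ly6c probe read 326 and 308 with Sox9 against 977 and 947 without.

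Blood and vessel cells also express Ly6a. The pan-leukocyte gene Ptprc, Cd3e, Itgam and Emr1 were above background in no RNA. Cd68 and Cd14, which macrophages and some epithelia express, were detected. The log2 ratios were -0.69 and -0.77 for Cd68 and -1.04 and -0.05 for Cd14, so Cd68 moved with Ly6a. Csf1r, the third tested gene of this list, was also detected and was near 0, at 0.03 and -0.12. Summed over the 3 tested genes, this list read 1944 and 2928 with Sox9 and 3724 and 3247 without. The 5 tested endothelial markers summed to 1139 and 1858 with Sox9 and 1347 and 1633 without, while Pecam1 and Tie1 were above background in no RNA. The part of these cells in the Ly6a value was not tested.

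Cd44, the hyaluronan receptor, was lower with Sox9 on both arrays at all 3 of its probes. At the brightest (A_52_P229536, mm9 chr2:102652907-102652966, minus strand) wild type cells read 7536 against 11054 in deleted cells, and vehicle-treated cells 5627 against 12010 after TAM. Both deleted RNAs were above both Sox9-expressing RNAs, a separation whose share among all tested probes was not counted. The log2 ratios were -0.55 and -1.09 (mean -0.82 ± 0.38 SD, n = 2, 95% interval -1.27 to -0.38, adjusted p = 0.161, limma). The second probe, chr2:102651667-102651726, was spotted 10 times per array and had -0.55 and -1.09 as well (adjusted p = 0.162, limma), with an SD between spots of 0.028 and 0.024. The third probe, chr2:102674420-102674479, lies in the variable part of the coding sequence, which the standard form of CD44 lacks, and the array's annotation assigns it to 2 of the 3 reference transcripts that the other probes match. It had -0.37 and -0.82 (mean -0.60, adjusted p = 0.187, limma). At each probe the treatment array held the larger ratio. The 60 bases of the third, shown because it reads the variable part, are:
Cd44 probe at transcript position 1851: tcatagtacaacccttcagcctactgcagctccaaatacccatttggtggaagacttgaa

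The mean of the brightest Cd44 probe was -0.39 under median centring of the arrays (adjusted p = 0.678, limma, the highest of a range from 0.131 over the alternatives), where the treatment array gave -0.38 and the genotype array -0.41. The list of CD44 ligands and their enzymes, cytoskeletal linkers and splicing regulators was mixed. Of 10 tested, 3 were above 0 on both arrays, 5 below and 2 of opposite sign (median -0.02). Ezr, the ezrin linker that ties CD44 to actin, had -0.51 and -0.54 (adjusted p = 0.122, limma), while the other linkers Msn and Rdx had means of -0.18 and 0.02. Of the hyaluronan synthases, Has2 had -0.16 and -0.04. The splicing regulators Esrp1 and Esrp2, which keep epithelial Cd44 exons in the transcript, had means of 0.23 and 0.13.

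**Figure D3:**
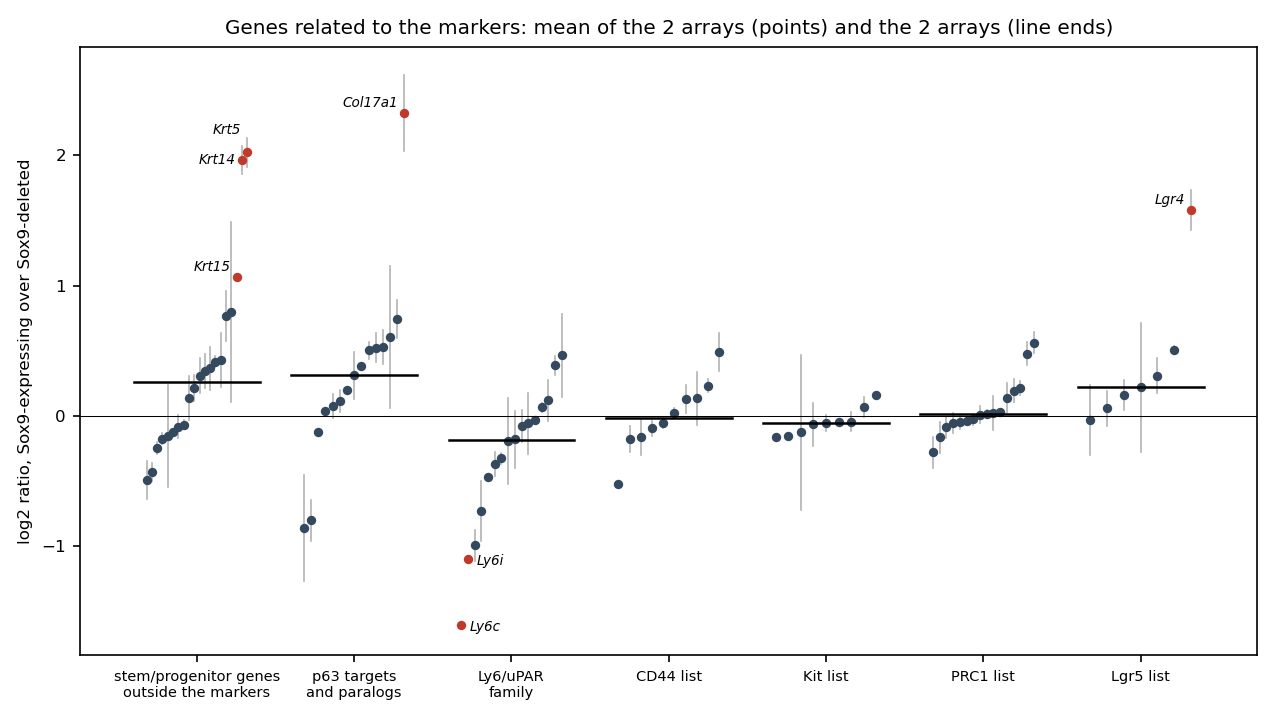
Log2 ratios of the genes related to the markers, by list: points are the mean of both arrays, line ends the 2 arrays, black bars the list's median, and red named points the genes at least 2-fold apart in the same direction on both arrays. The named points are Krt5, Krt14, Krt15, Col17a1 and Lgr4 above 0 and Ly6c and Ly6i below 0; the medians of the plotted lists run from -0.19 to 0.31.

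Psca, the prostate stem cell antigen, was the marker on which the arrays disagreed most. Its probe (A_51_P253897, mm9 chr15:74546879-74546938, plus strand) read 152 in wild type cells against 322 in their deleted partner, but 447 in vehicle-treated cells against 268 after TAM. The Sox9-expressing RNAs were thus both the lowest and the highest of the 4, and the 2 deleted RNAs lay between them. The log2 ratios were -1.09 and 0.74 (mean -0.17 ± 1.29 SD, n = 2, 95% interval -1.52 to 1.17, adjusted p = 0.87, limma), and 0.383% of tested probes lay farther apart between the arrays. The signs of the 2 arrays were the same under median centring, the constant of 10, no background subtraction, the scanner software's ratio and the authors' processed values, with the genotype array between -2.23 and -1.07 and the treatment array between 0.74 and 1.18 over those and the main setting. The whole probe, shown because it alone carries this result, is:
Psca probe at transcript position 239: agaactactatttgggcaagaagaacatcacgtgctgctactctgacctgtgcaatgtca

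Markers of the stroma, the connective tissue around the epithelium, moved between the arrays in the same way as Psca. Of 12 stromal markers 11 were of opposite sign on the arrays, each lower with Sox9 on the genotype array and higher on the treatment array, with medians of -0.69 and 0.55. Col3a1 had -1.63 and 1.13 and Col1a1 -1.26 and 1.03, while Dcn was below 0 on both. The summed brightness of the list was 38107 in wild type cells, 64554 in their deleted partner, 96937 in vehicle-treated cells and 58755 after TAM. The 4 RNAs stand in the same order as for Psca. Its part in the Psca value was not tested. Of the basal markers, 9 of 10 were above 0 on both arrays and Dst below 0 on both.

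**Figure D4:**
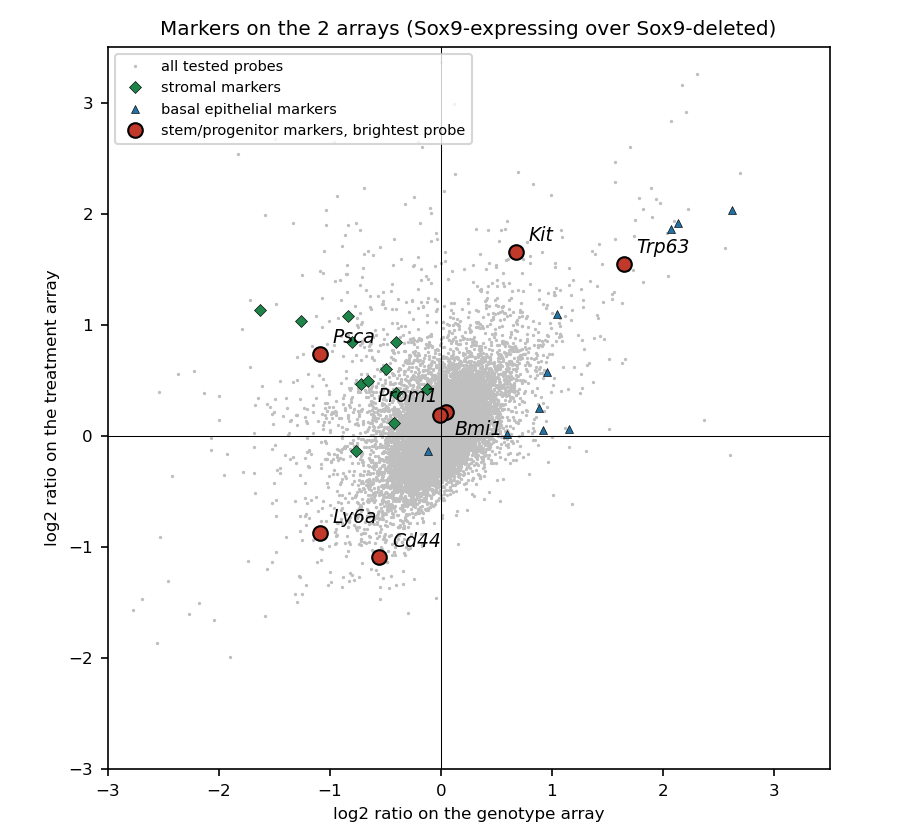
Log2 ratio on the genotype array (horizontal) against the treatment array (vertical) for all tested probes (grey, 8 of them outside the axes), stromal markers (green), basal markers (blue) and the brightest probe of each tested stem and progenitor marker (red). Psca lies among the stromal markers at the upper left, and Trp63 lies towards the basal markers at the upper right.

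Prom1 and Bmi1 were detected in every RNA at levels that differed little. For Prom1, the CD133 gene, the brighter probe (mm9 chr5:44385331-44385390, minus strand) read 298 against 299 on the genotype array and 338 against 296 on the treatment array, with log2 ratios of -0.01 and 0.19 (mean 0.09, 95% interval -0.16 to 0.34, adjusted p = 0.622, limma). Its second probe, chr5:44397410-44397469, had -0.32 and 0.01 (mean -0.15, 95% interval -0.47 to 0.16). Prom2, the other prominin of epithelia, had 0.60 and 0.54 (adjusted p = 0.118, limma).

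Bmi1, a subunit of Polycomb repressive complex 1, read 422 against 408 and 462 against 398 at its brighter probe (mm9 chr2:18605306-18605365, plus strand), with log2 ratios of 0.05 and 0.21 (mean 0.13, 95% interval -0.11 to 0.37, adjusted p = 0.477, limma). The second probe, chr2:18607987-18608046, had 0.13 and -0.07 (mean 0.03). Its partners and their target were as mixed: of 16 tested, 6 were above 0 on both arrays, 5 below and 5 of opposite sign (median 0.01). Pcgf2, the paralog that takes the place of Bmi1 in the complex, had 0.48 and 0.64 (adjusted p = 0.131, limma), Cbx8 had 0.39 and 0.56 (adjusted p = 0.154, limma), and Cdkn2a, the locus that Bmi1 is known to silence, had -0.13 and 0.02.

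Lgr5 was not detected: its probes (mm9 chr10:114888847-114888906 and chr10:114900686-114900745, minus strand) read between 82.0 and 95.4 and were not well above background in any RNA, so no ratio is given. Its relative Lgr4, an R-spondin receptor of many epithelia, was at least 2-fold higher with Sox9 on both arrays, with 1259 against 469 and 1288 against 388, log2 ratios of 1.42 and 1.73 and an adjusted p of 0.0833 (limma). Of the 7 tested genes of this list 4 were above 0 on both arrays, 0 below and 3 of opposite sign. Their median was 0.22, with 0.045 on the genotype array and 0.445 on the treatment array. Rnf43, which removes Wnt receptors and which R-spondins inhibit, had 0.48 and 0.54, while Axin2, Ascl2 and Olfm4 were not tested.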

How the data were processed

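RNA of 4 prostasphere cultures was hybridised on 2 two-colour Agilent mouse arrays on 1 slide. The deposited scanner files hold intensity per spot, written by Agilent Feature Extraction, with mm9 named in their headers, and its log10 ratio of Cy5 over Cy3, which per the file headers the software made from background-subtracted and dye-normalised signals. The deposited log2 table holds the authors' processed ratios, and how it was made is not given in the sources used here beyond limma, named in the submitters' processing notes. Its direction and log2 scale were found by setting it against the scanner ratios. Cy5 is the Sox9-expressing RNA on both arrays by the genotype and treatment labels, although the source names (SOX9 for Cy5, Ctrl for Cy3) can be read the other way.

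Control and outlier spots were left out, mean intensity was corrected by normexp with an offset of 50, arrays were loess-normalised, spots of a probe were averaged, and brightness per RNA was taken after Aquantile scaling. Probes were tested where well above background on both arrays in at least 1 dye (22731). limma 3.58.1 (R 4.3.3) tested the mean log2 ratio of both arrays (n = 2) against 0, two-sided, with Benjamini-Hochberg adjustment over all tested probes; with 2 arrays the p-values measure only the spread between these arrays, and the number of arrays limits precision. A gene is read from its brightest tested probe. The steps were tested on simulated data. Named are the 8 markers with all probes, Sox9, genes of the related lists (not the cell type marker lists) at least 2-fold on both arrays and the 3 nearest genes of each marker with a mean of at least 1 in size; other genes of either kind of list were named after their values were seen. The markers and lists were chosen with earlier results of these data known. Sequences are those of the array's probes. Some list genes are not reported here by name.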

Additional observations from a re-analysis of the deposited data

Results flagged for a closer look

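Psca had a log2 ratio of -1.086 on the genotype array and 0.7394 on the treatment array, opposite directions in the 2 comparisons, each of 1 array, so the difference was not tested. Among the other marker probes, Prom1 at transcript position 2381 had -0.3151 and 0.0056, Prom1 at position 3134 had -0.0058 and 0.1916, and Bmi1 at position 3324 had 0.134 and -0.0712, in the same order of arrays. These 3 differences were not tested either.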

How the results depend on the processing

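The marker values were set against the alternatives and against each array alone. Of these, 140 kept their direction and their side of the threshold or moved by less than the spread between arrays, 4 came past the threshold and 7 reversed. A value from 1 array alone always lies within that spread of the mean, so it could only reverse or count as kept. The t-test and the filters on dim probes leave the ratios unchanged. The 140 are therefore not a measure of stability. Trp63 came past the threshold under median centring (1.88), the authors' values (1.75) and no filter on dim probes (1.60), and Kit under median centring (1.37). Median centring put the median of all tested probes on the treatment array at 0.379. Under median centring Psca (0.0582) and Prom1 at transcript position 2381 (0.0555) reversed, and Prom1 reversed as the mean over its probes (-0.0309). The cause was not tested.

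Without 1 array, values carry no test and are those of the other array, given here as the genotype array and then the treatment array. Psca had -1.09 and 0.74, Prom1 -0.0058 and 0.1916, Prom1 at position 2381 -0.3151 and 0.0056, and Bmi1 at position 3324 0.134 and -0.0712. In the same order Trp63 had 1.65 and 1.55, Kit 0.68 and 1.66, Ly6a -1.09 and -0.88, Cd44 -0.55 and -1.09, and Bmi1 0.05 and 0.21.

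Probes past the threshold were 2 in the main setting, 522 under median centring, 68 in the authors' values, 21 with no filter and 0 with scaling, with the constant of 10, without background subtraction, in the scanner software's ratio and by the methods' t-test (after Benjamini-Hochberg; 1930 before), beside 3990 unadjusted in the main setting. Probes at least 2-fold on both arrays were 66 higher and 29 lower in the main setting, 112 and 10 under median centring, 290 and 310 in the scanner software's ratio, 51 lower without background subtraction, 49 lower in the authors' values and 16 lower with scaling. On 1 array alone they were 107 to 308 higher and 74 to 191 lower.

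Among list medians, 7 reversed: the Kit list (0.10) and CD44 list (0.37) under median centring, the CD44 list on 1 array alone (-0.0319 to 0.0226), and the Polycomb list without background subtraction (-0.0087), in the software's ratio (-0.0268), in the authors' values (-0.0091) and over mean probes (-0.0095). A further 19 list medians moved by more than the spread between arrays, among them the p63 targets (0.2009 to 0.6107 against 0.3116) and the stem and progenitor genes (0.1427 and 0.5683 against 0.2606). No paired analysis was possible because each array is itself 1 pair of RNAs. Dim probes such as Kit, Psca and the second Trp63 probe have ratios that depend on the background handling.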
